A study of Mus musculus with 4 samples.

Results

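Rere encodes the arginine-glutamic acid dipeptide repeats protein, a nuclear co-regulator of the atrophin family, and its pre-mRNA yields circular RNAs (circRNAs) in mouse lung. A circRNA forms when the donor splice site at the end of an exon joins an acceptor splice site at the start of the same exon or of one upstream, and reads across that back-splice junction identify it. The Rere circles described here are all circRNAs that the deposited lists assign to the Ensembl gene ENSMUSG00000039852, which the GENCODE M21 annotation names Rere. These are 33 of the 13499 distinct circRNAs in the lists, where a circRNA is defined by its chromosome, start and end. Rere was chosen because it had the most distinct circles of any host gene in these lists, so that number is a description and supports nothing further.

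Whole lung of C57BL/6 mice, with no other genotype or treatment in the labels, was sequenced as total RNA at 4 stages of development, with 1 library per stage. The pseudoglandular library was from embryonic day 14.5. The canalicular library was from embryonic day 16.5, the library of the terminal sac phase from embryonic day 18.5, and the alveolar library from newborn mice of day 7.5. The labels do not give the number of animals behind each library. With 1 library per stage there was no replicate check, every comparison below is between libraries, and no p-value was computed. All intervals are 95% intervals that cover counting error only, and since reads copied by PCR are not independent molecules they can be too narrow. Whole lung is a mixture, so fewer cells of a type and less RNA per cell cannot be told apart in any value below.

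In the mouse, RERE binds histone deacetylases and other chromatin enzymes and acts with orphan and retinoic acid receptors on target genes. Its amino-terminal part carries the BAH, ELM2, SANT and GATA zinc finger domains that are typical of such co-regulators, and retinoic acid signalling, to which it contributes in mouse embryos, is needed for formation of the lung buds. Circular RNAs have no free ends, which makes them more stable than most linear transcripts, and long introns on both sides of an exon are a common feature of genes that produce them. Several circles of 1 gene often share an acceptor or a donor site, which is called alternative back-splicing.

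Rere lies on the plus strand of chromosome 4, at chr4:150281646-150621966 in the build mm10 (GRCm38), and exon numbers here follow the transcript Rere-202, which has 23 exons. Exon 2 spans chr4:150406196-150406664 and has 469 bases, of which 144 are 5′ untranslated and 325 coding, so the start codon lies inside it. The intron before exon 2 has 124120 bases and the intron after it has 24858 bases. Exon 2 is the acceptor exon of 11 of the 33 Rere circles, which hold 543 of the 683 junction reads, and the stretch that opens its coding part is shown because each circle starting at this exon carries it. It lies at chr4:150406340-150406399, with the start codon in capitals.
exon 2 from its start codon: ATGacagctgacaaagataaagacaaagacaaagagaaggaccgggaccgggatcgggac

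The circles that start at exon 2 differ in the exon end that is joined back to it, and these ends are what distinguishes their junction reads. The last 20 bases of the 9 exons whose ends were joined to the start of exon 2 follow, from the GENCODE M21 transcript sequence (mm10, plus strand). The capitals mark the last 6 bases before the junction.
exon 2 end: cgttgtctacagacCGGGAG
exon 3 end: gcatccaagacttcAAACTG
exon 4 end: ccgggagagggcctGGAGGG
exon 6 end: taccatgctgctgcCCTAAG
exon 7 end: ggatacaaccctgaGACAAG
exon 8 end: gagttggccctagcCACCAG
exon 10 end: ctctcaatgcactgAACACA
exon 11 end: gctggacagaggatGAAGTG
exon 12 end: tgcttcccagtaagGAAACC

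Of the circles that start downstream of exon 2, those of exons 3 to 4, 4 to 7, 4 to 8 and 5 to 10 had 10 or more junction reads in all. Their back-splice junctions are shown because they join some of the same exon ends to other acceptors. Each line gives the last 20 bases of the end exon in lower case and then the first 20 bases of the start exon in capitals.
junction exons 3 to 4: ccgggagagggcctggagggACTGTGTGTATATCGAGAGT
junction exons 4 to 7: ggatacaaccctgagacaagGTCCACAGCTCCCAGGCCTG
junction exons 4 to 8: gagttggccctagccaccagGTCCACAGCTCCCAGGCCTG
junction exons 5 to 10: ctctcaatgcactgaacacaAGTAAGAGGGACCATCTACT
The circles of exons 4 to 7 and 4 to 8 have the same capitals because both start at exon 4. The end of exon 4 stands in the circle of exons 3 to 4 as it does in the circle of exons 2 to 4, and the end of exon 10 in the circle of exons 5 to 10 as in that of exons 2 to 10.

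In order of stage the lists held 25983, 31218, 36156 and 28332 junction reads, and every listed circRNA had at least 2. Circles of marker genes were used to check the tissue label. Of 9 lung genes 5 had listed circles, with 2, 14, 448 and 739 junction reads summed over the list in order of stage, and Nkx2-1, Foxf1, Scgb1a1 and Ager had none listed. Of 5 cardiac and striated muscle genes 3 were listed, with 94, 28, 16 and 26 reads in the same order, and Myh6 and Tnnt2 were not. Macrophage genes were listed for 4 of 4, with 4, 37, 35 and 11 reads. Of 5 neuronal genes 1 was listed, with 5, 3, 0 and 2 reads, and of 5 erythroid genes 2 were listed, with 0, 2, 4 and 2 reads. Sums of these lists changed between stages, and their part in the Rere values was not tested.

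Junction reads of Rere circles numbered 189, 201, 151 and 142 in order of stage, 683 in all. As a share of all listed junction reads the pseudoglandular library had 0.727% (exact binomial interval 0.628 to 0.838) and the canalicular library 0.644% (0.558 to 0.739). The terminal sac library had 0.418% (0.354 to 0.490), and the alveolar library 0.501% (0.422 to 0.590). Thus the share was highest in the first 2 stages and lowest in the terminal sac library. By junction reads Rere ranked, in order of stage, 10 of 2474, 10 of 2532, 23 of 2703 and 12 of 2348 host genes.

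Between libraries the Rere share differed by less than 2-fold in each of the 6 pairs, so that none met the rule for a called difference, which asked for a ratio of at least 2-fold with an interval that excluded 1 and for 10 or more reads in the pair. Under that rule, 29.6% of 1084 host genes were called in the alveolar against the pseudoglandular library and 20.1% of 1127 in the canalicular against the pseudoglandular. The same background was 24.5% of 1236 for terminal sac against canalicular and 24.5% of 1197 for alveolar against terminal sac. It was 25.0% of 1183 for the terminal sac against the pseudoglandular library and 28.2% of 1135 for the alveolar against the canalicular. The alveolar to pseudoglandular ratio of the Rere share was 0.689 (0.550 to 0.861), beside a median of 0.917 over all hosts tested. The terminal sac to pseudoglandular ratio was 0.574 (0.460 to 0.715), beside a median of 1.06, and the terminal sac to canalicular ratio was 0.649 (0.522 to 0.805), beside a median of 1.01. The alveolar to canalicular ratio was 0.778 (0.623 to 0.970), beside a median of 0.872. These 4 intervals lay below 1, though the last did not under a different scaling, by the median of ratios, given below. By contrast, the canalicular to pseudoglandular ratio of 0.885 (0.722 to 1.09) and the alveolar to terminal sac ratio of 1.20 (0.948 to 1.52) had intervals that included 1. These ratios share libraries and are not independent.

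The 18, 19, 15 and 18 Rere circles listed in order of stage overlapped only in part. Of the 33 circles, 6 were listed in all 4 libraries and held 483 reads (70.7%), 6 in 3 libraries with 116 reads, 7 in 2 libraries with 43 reads, and 14 in a single library with 41 reads. Of all circRNAs in the lists, 6.64% were listed in 4 libraries and 74.4% in 1. The 12 circles with 10 or more reads in all held 599 of the 683 reads (87.7%), and the other 21, with 2 to 9 reads each, held 84. The hosts next to Rere by number of circles were Ehmt1, a histone H3 lysine 9 methyltransferase, with 32 circles and 316 reads, and Macf1, a cytoskeletal crosslinker, with 31 circles and 144 reads. Stag1, a cohesin subunit, had 30 circles and 177 reads, and Chd2, a chromatin remodeller, had 28 circles and 218 reads. A single circle took 34.1% of the Rere reads, compared with 13.9% for Ehmt1, 13.2% for Macf1, 22.0% for Stag1 and 28.0% for Chd2.

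**Figure D1:**
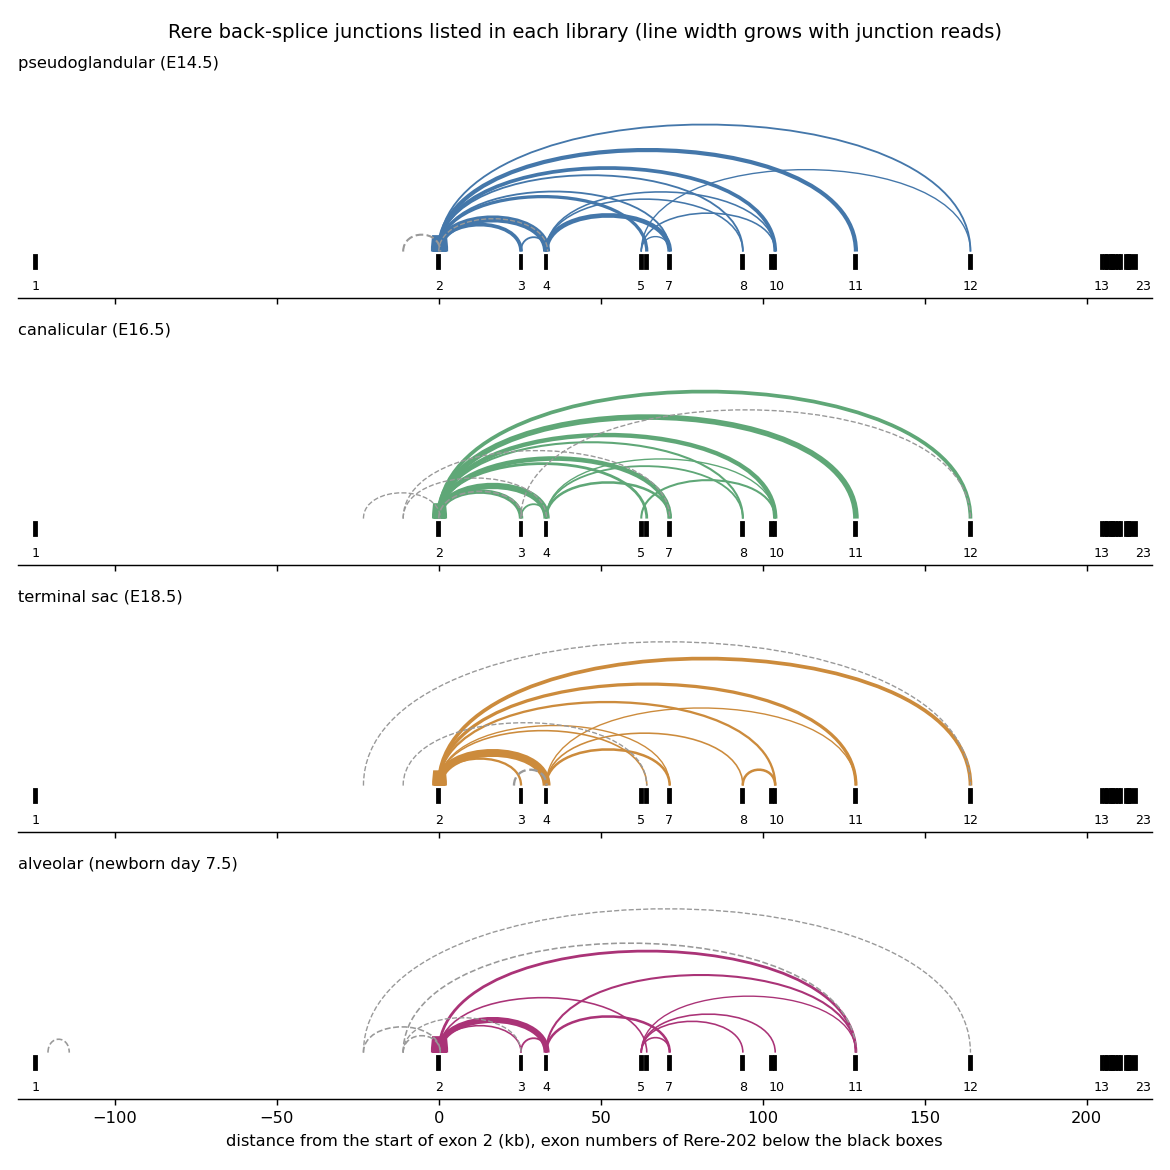
Arcs join the start and end of each Rere circle listed in a library, plotted against distance from the start of exon 2 in kb, with exons of Rere-202 as black boxes, 1 panel per library. Line width grows with junction reads, coloured arcs have both ends at exon boundaries and dashed grey arcs do not. The widest arcs start at exon 2 at 0 kb, and no arc reaches exons 13 to 23.

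All Rere circles with annotated ends lay in exons 2 to 12. Those with both ends at exon boundaries of Rere-202 numbered 20 and held 639 reads (93.6%). They used 20 of the 66 exon pairs that exons 2 to 12 allow, from 5 start exons and 9 end exons. The start exons were 2, 3, 4, 5 and 8, and the end exons were 2, 3, 4, 6, 7, 8, 10, 11 and 12. Between exons 2 and 12, only exons 5 and 9 closed no circle. The introns that follow these exons, with 1494 and 984 bases, were the shortest of the introns after exons 1 to 12, the third shortest having 6972 bases. On the start side, exons 6, 7, 9, 10, 11 and 12 opened no circle. Exons 6 and 10 follow the same short introns, but the introns before exons 11 and 12 have 24808 and 35270 bases. The part of intron length was not tested. No circle touched exons 13 to 23, among which the 10 introns ranged between 109 and 978 bases in length. If all annotated exons between the ends are kept, which the junction reads do not show, these circles have 197 to 1428 bases.

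Start and end coordinates were shared to the base. The 33 circles had 9 distinct starts, of which 6 were used by 2 or more circles, and 13 distinct ends, of which 9 were used by 2 or more. A single circle, chr4:150285592-150292153 inside intron 1, shared neither coordinate with another. The start of exon 2 was used by 11 circles with 543 reads (79.5%). The start of exon 4 was used by 4 circles with 59 reads, that of exon 5 by 5 circles with 23 reads, that of exon 3 by 2 circles with 14 reads and that of exon 8 by 1 circle with 7 reads. Reads were spread more evenly over the ends than over the starts. The end of exon 2 closed 3 circles with 246 reads (36.0%), the end of exon 4 closed 4 circles with 121 reads, and the ends of exons 7, 11 and 10 closed 4 circles each, with 66, 64 and 56 reads.

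The circle of exon 2 alone had the most reads of the Rere circles in each library. It had 63, 54, 53 and 63 junction reads in order of stage. Its alveolar to pseudoglandular ratio of shares was 0.917 (0.636 to 1.32). The terminal sac to pseudoglandular ratio was 0.605 (0.411 to 0.885) and the alveolar to terminal sac ratio was 1.52 (1.04 to 2.23), both with intervals that excluded 1 but under 2-fold. The other 3 pairs had ratios between 0.713 and 1.29 with intervals that included 1, and the circle was called in none of the 6 pairs. The circle carries the start codon in the sequence printed above, and reading from that codon around the circle gave 126 codons before a stop, with the stop 56 bases past the junction.

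Circles that start at exon 2 and end at a later exon numbered 8 and held 305 reads. Among these, exons 2 to 4 formed a circle with 26, 23, 30 and 22 reads in order of stage that, like the exon 2 circle, was called in no pair. For exons 2 to 3 the reads were 12, 15, 6 and 3 in order of stage. For exons 2 to 10 they were 12, 15 and 6 in the 3 prenatal libraries, and the circle was not listed in the alveolar library. By raw reads both were highest in the canalicular library and lowest, or not listed, in the alveolar library. As shares, the canalicular to pseudoglandular ratio was 1.04 (0.455 to 2.43) for each of them.

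Among the longer circles, exons 2 to 11 gave 14, 20, 10 and 8 reads in order of stage. Exons 2 to 12 gave 4, 12 and 12 reads in the 3 prenatal libraries and were not listed as a circle in the alveolar library. Exons 2 to 7 gave 4, 16 and 2 reads in the prenatal libraries, and were not listed in the alveolar library either. Thus, of the circles that start at exon 2, those that close at exons 7, 10 and 12 were listed in each prenatal library and not in the alveolar library. A circle not listed there may still have had a few reads, and the alveolar list held 4474 of the 13499 distinct circRNAs. Of circRNAs listed in all 3 prenatal libraries, the share missing from the alveolar list was not counted. The other 2 circles of this kind were that of exons 2 to 6, with 10, 8, 3 and 3 reads in order of stage, and that of exons 2 to 8, with 4 and 5 reads in the pseudoglandular and canalicular libraries and none listed later.

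Reading frame divided the circles that start at exon 2. With all annotated exons kept, 6 of the 9 with annotated ends had a length that is a multiple of 3, namely those ending at exons 3, 4, 8, 10, 11 and 12, and of all 20 circles with annotated ends 13 did. In these 6 circles the frame of the start codon met a stop 9 bases past the junction, after 134 to 430 codons. In the circles of exons 2 to 6 and 2 to 7 the stop came 52 bases past the junction. These are computed from sequence, and translation was not measured.

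Circles that start at exons 3 to 8 numbered 11 and held 101 reads. The largest, of exons 4 to 7, had 16 reads in the pseudoglandular library and 7 in each of the canalicular, terminal sac and alveolar libraries. Exons 3 to 4 gave a circle with 4 reads in each of the pseudoglandular, canalicular and alveolar libraries that was not listed in the terminal sac library. That of exons 5 to 10 had 3, 5 and 3 reads in those same libraries and was likewise not listed in the terminal sac library. That of exons 4 to 8 had 3, 4 and 3 reads in the prenatal libraries and was not listed in the alveolar library. All 5 circles that start at exon 5 were missing from the terminal sac list, and they had 7 reads in the pseudoglandular, 5 in the canalicular and 11 in the alveolar library. The terminal sac list held 5564 of the 13499 distinct circRNAs, and these 5 circles had 2 to 11 reads each in all. The circle of exons 8 to 10 was listed in the terminal sac library only, with 7 reads.

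A further 8 circles started upstream of exon 2 at positions that are no exon start of Rere-202 and closed at the annotated ends of Rere exons. Of these, 6 shared the start 150395209, which lies 10987 bases before exon 2, and had 5, 4, 2 and 8 reads in order of stage. They closed at exons 2, 3, 4, 6, 7 and 11. The other two shared the start 150382953, which lies 23243 bases before exon 2, and had 2, 2 and 5 reads in the canalicular, terminal sac and alveolar libraries. They closed at exons 2 and 12. All 8 circles together had 28 reads, which limits each to a few reads per library. The remaining 5 circles had at least 1 end at a position that is not an exon boundary of Rere-202, and 16 reads in all. Of these, chr4:150429409-150439468 starts 2114 bases before exon 3, closes at exon 4 and had 6 reads in the terminal sac library only, in 2 alignment patterns. Another ends 11 bases before the end of exon 12 and had 2 reads in the canalicular library.

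Differences between libraries in the share of single circles were counted over circles with 10 or more reads in the pair, which means 5 to 9 Rere circles. In the alveolar against the pseudoglandular library, 2 of 7 Rere circles were called (28.6%), both lower, beside 29.6% of 933 circRNAs called in either direction and 17.4% called lower. The share of the circle of exons 2 to 3 was 4.36-fold lower (interval 1.18 to 24.1). The circle of exons 2 to 10 was not listed in the alveolar library and was set to a floor of 3 reads per library. It was at least 4.36-fold lower, with an interval at that floor of 1.18 to 24.1. Between the alveolar and the canalicular library, 3 of 9 were called (33.3%), all lower, beside 25.6% of 1027 circRNAs called and 14.3% called lower. Here the circle of exons 2 to 3 was 4.54-fold lower (1.28 to 24.5), and the circles of exons 2 to 7 and 2 to 10 were at least 4.84-fold and at least 4.54-fold lower. With an interval of 99% none of 7 and 1 of 9 Rere circles were called in these pairs.

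In the terminal sac against the canalicular library, 4 of 9 Rere circles were called (44.4%), all lower, beside 20.1% of 1208 circRNAs called and 11.2% called lower. These were the circles of exons 2 to 3, 2 to 7, 2 to 10 and 2 to 11. Lowest of the 4 ratios was that of exons 2 to 7, at 0.108 (0.0120 to 0.460). Counting reads from nearby positions on the flow cell once left 2 calls, the circles of exons 2 to 7 and 2 to 10, and an interval of 99% left 1. In the canalicular against the pseudoglandular library, the circle of exons 2 to 7 was 3.33-fold higher (1.07 to 13.7) and the circle of exons 4 to 7 was lower, with a ratio of 0.364 (0.127 to 0.936), so that 2 of 9 were called (22.2%), beside 18.0% of 1017 circRNAs called, 8.16% higher and 9.83% lower. Neither was called with nearby reads counted once or with a 99% interval.

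In the terminal sac against the pseudoglandular library, 2 of 8 Rere circles were called (25.0%), those of exons 2 to 6 and 4 to 7, both lower, beside 23.6% of 1131 circRNAs called and 14.1% called lower. Neither was called with nearby reads counted once or with a 99% interval. Comparing the alveolar with the terminal sac library, 0 of 5 Rere circles were called, beside 21.5% of 1123 circRNAs. With 5 to 9 circles in a pair, 1 circle more or less moves these shares by over 10 percentage points.

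**Figure D2:**
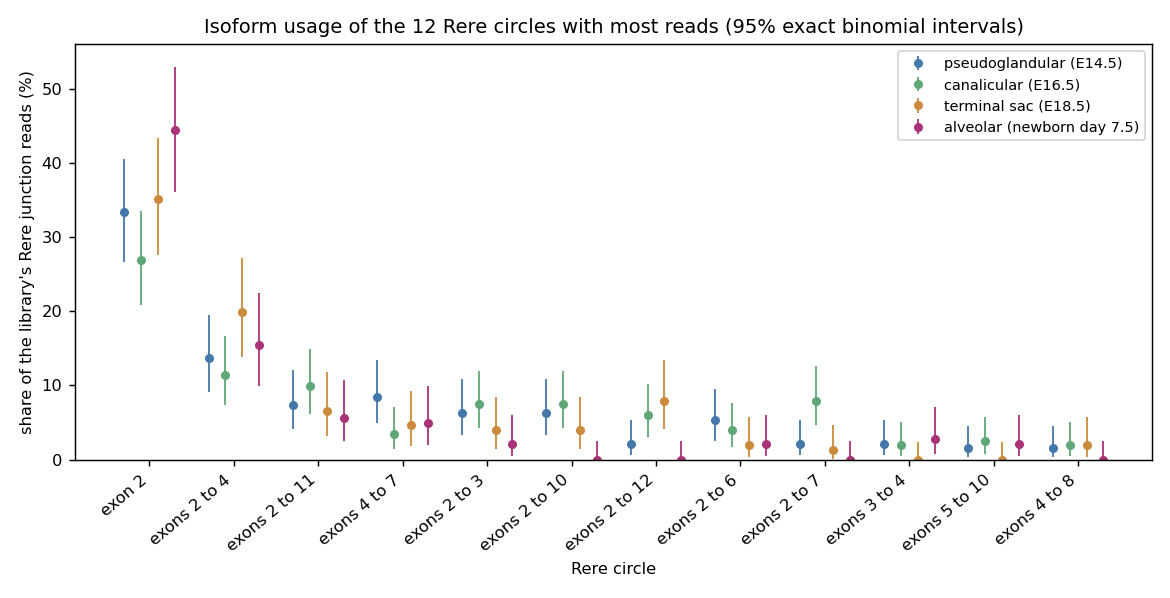
The share of a library's Rere junction reads (%) is plotted for the 12 Rere circles with most reads, 4 points per circle for the 4 libraries, with exact binomial 95% intervals. The exon 2 circle takes 33.3%, 26.9%, 35.1% and 44.4% in order of stage, and no other circle takes more than 19.9% in any library.

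Isoform usage, the share of a library's Rere junction reads held by a circle, does not depend on how libraries are scaled. The exon 2 circle held 33.3% (26.7 to 40.5), 26.9% (20.9 to 33.6), 35.1% (27.5 to 43.3) and 44.4% (36.0 to 52.9) of Rere reads in order of stage. The alveolar library stood highest and the canalicular lowest, and their intervals did not overlap. The odds that a Rere read came from this circle were 2.17 times higher (1.34 to 3.51) in the alveolar than in the canalicular library. In that pair 4 of 9 circles met the same 2-fold rule on odds, beside 15.2% of 670 circRNAs set against the other circles of their own hosts. Shares within a library add to a fixed total, so these 4 are not independent of each other. The other circles past the rule were lower in usage, those of exons 2 to 3, 2 to 7 and 2 to 10. Their odds ratios were 0.268 (0.0489 to 0.975), 0.245 (0.0449 to 0.880) and 0.263 (0.0479 to 0.954). Those of exons 2 to 7 and 2 to 10 were not listed in the alveolar library and were set to 3 reads there. No other interval level was tried for usage odds.

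In the canalicular against the pseudoglandular library 1 of 9 circles met the rule on usage, beside 13.7% of 684 circRNAs. This was the circle of exons 2 to 7, with odds 3.99 times higher (1.25 to 16.7). In the terminal sac against the canalicular library it was again the only 1 of 9, with an odds ratio of 0.156 (0.0171 to 0.679), beside 12.6% of 831. The circle of exons 2 to 12 was the only 1 of 8 past it in the terminal sac against the pseudoglandular library, with odds 3.98 times higher (1.17 to 17.3), beside 16.0% of 761. The same circle was the only 1 of 5 in the alveolar against the terminal sac library, beside 14.7% of 761. At the floor of 3 reads its odds were at least 4.07 times lower there (1.07 to 22.9). Comparing the alveolar with the pseudoglandular library, 0 of 7 met the rule, beside 16.6% of 579.

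**Figure D3:**
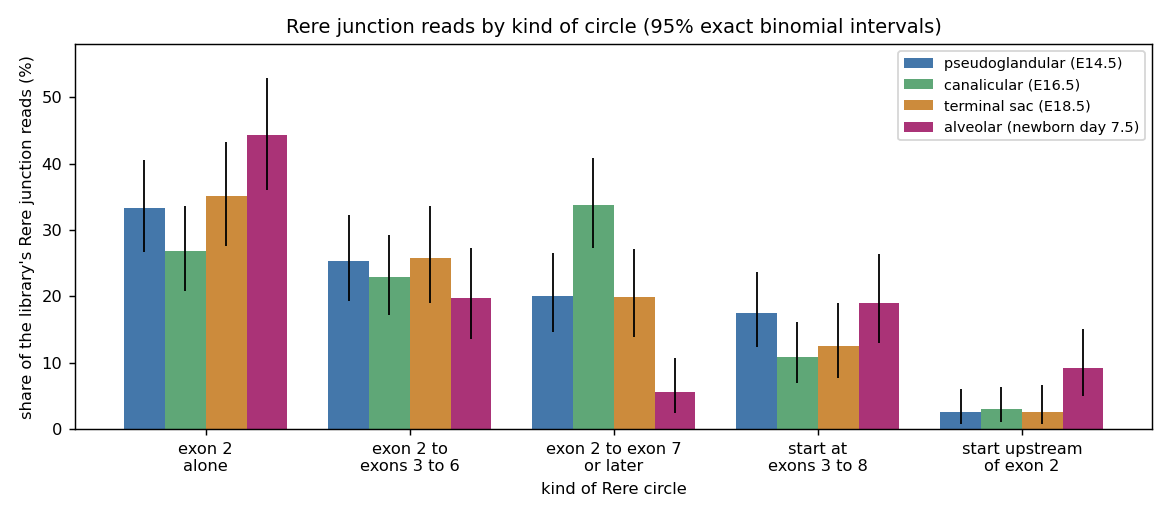
Bars give the share of each library's Rere junction reads (%) held by 5 kinds of Rere circle, grouped by kind with the 4 libraries side by side, and black lines are exact binomial 95% intervals. Circles from exon 2 to exon 7 or later hold 20.1%, 33.8%, 19.9% and 5.63% in order of stage, with circles not listed counted as 0 reads.

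Grouping the circles by kind was done after their values were seen, so the following is a description. Circles from exon 2 to exon 7 or later had 38, 68, 30 and 8 reads in order of stage, or 20.1% (14.6 to 26.5), 33.8% (27.3 to 40.8), 19.9% (13.8 to 27.1) and 5.63% (2.46 to 10.8) of the Rere reads. With circles not listed counted as 0 reads, the alveolar interval lay below those of the 3 prenatal libraries. The circles from exon 2 to exons 7, 8, 10 and 12 were not listed in the alveolar library and may have had up to 3 reads each. The interval was not recomputed with such reads added. Circles from exon 2 to exons 3 to 6 held 25.4%, 22.9%, 25.8% and 19.7%, with overlapping intervals. Circles that start at exons 3 to 8 held 17.5%, 10.9%, 12.6% and 19.0%, and circles that start upstream of exon 2 held 2.65%, 2.99%, 2.65% and 9.15%. All starts at exon 2 together held 79.9%, 85.1%, 80.8% and 69.7%. The 8 alveolar reads from exon 2 to exon 7 or later were all of the circle of exons 2 to 11.

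Linear reads were taken from the deposited non-junction counts, which are reads aligned without back-splicing at the ends of a circle. The deposited junction ratio is a fraction, that of reads at these ends which are back-spliced, with each junction read counted at both ends. For the exon 2 circle the non-junction reads were 424, 428, 365 and 430 in order of stage, and its junction ratio was 0.229, 0.201, 0.225 and 0.227. The ratio of this circle was thus nearly level, and its junction odds differed between no pair of libraries by the 2-fold rule. It stood above 91.8% to 93.0% of the circRNAs listed in the same library. The median junction ratio was 0.023, 0.021, 0.027 and 0.024 over all listed circRNAs and 0.0305, 0.046, 0.037 and 0.028 over the listed Rere circles.

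**Figure D4:**
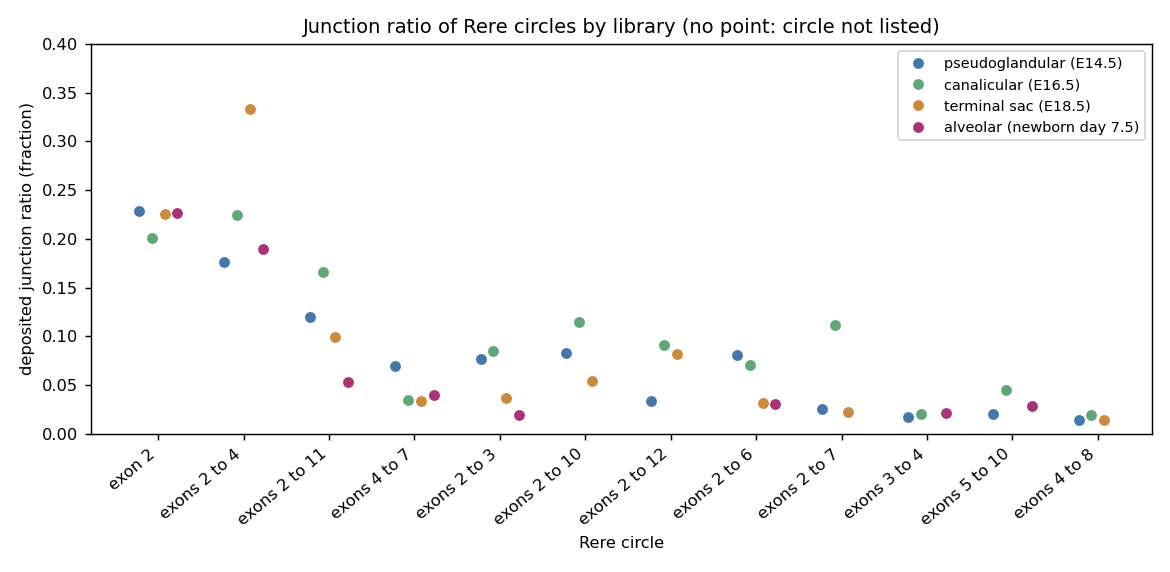
The deposited junction ratio (fraction) is plotted for the 12 Rere circles with most reads, with 1 point per library in which the circle was listed. The exon 2 circle lies between 0.201 and 0.229 in the 4 libraries, while the circle of exons 2 to 4 reaches 0.333 in the terminal sac library.

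The circle of exons 2 to 4 had the highest junction ratio of the 12 in 2 of the libraries, 0.224 in the canalicular and 0.333 in the terminal sac, and had 0.176 in the pseudoglandular and 0.190 in the alveolar library. Its non-junction reads were 243, 159, 120 and 188 in order of stage. The odds of junction to non-junction reads were 2.33 times higher (Woolf interval 1.32 to 4.09) in the terminal sac than in the pseudoglandular library, while the share of junction reads of this circle was not called there. It was the only 1 of 10 circles past the 2-fold rule on junction odds in that pair, beside 23.5% of 1308 circRNAs with 10 or more reads. In the alveolar against the terminal sac library its odds ratio was 0.472 (0.261 to 0.851), 1 of 6 circles, beside 18.1% of 1304.

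Exons 2 to 3 had junction ratios of 0.077, 0.085, 0.037 and 0.019 in order of stage, with 288, 321, 310 and 310 non-junction reads, so that its linear reads were nearly level as raw counts, not scaled for depth. Its junction odds ratio was 0.260 (0.0787 to 0.860) for the alveolar against the pseudoglandular library, 1 of 8 circles past the rule, beside 17.2% of 1151. For the alveolar against the canalicular library it was 0.234 (0.0725 to 0.754), and that of the circle of exons 2 to 11 was 0.294 (0.129 to 0.667), 2 of 8 circles, beside 15.2% of 1236. In order of stage, that circle had non-junction reads of 206, 201, 183 and 284 and junction ratios of 0.120, 0.166, 0.099 and 0.053. That of exons 2 to 7 was past the rule in the canalicular against the pseudoglandular library, with odds 4.42 times higher (1.54 to 12.7), 1 of 12 circles, beside 11.8% of 1249. It was past it again in the terminal sac against the canalicular library, with an odds ratio of 0.216 (0.0563 to 0.828), 1 of 10, beside 18.6% of 1401.

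**Figure D5:**
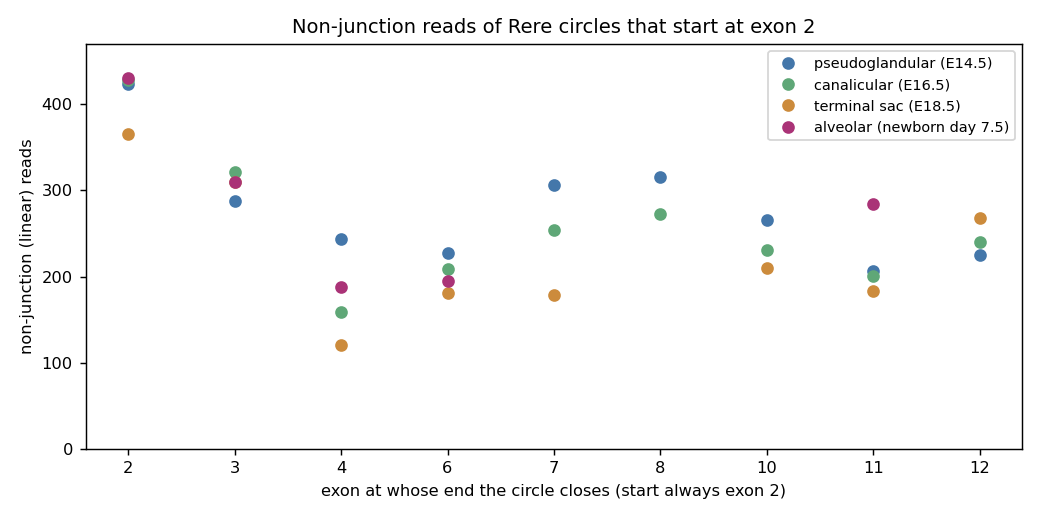
Non-junction reads (y axis, raw counts) are plotted for the circles that start at exon 2, by the exon at whose end the circle closes, with 1 point per library in which the circle was listed. The circle of exon 2 alone has the most in each library, between 365 and 430, and the circle of exons 2 to 4 has 120 in the terminal sac library.

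The non-junction reads of a Rere circle were the sum of a value for its start and a value for its end. In each library a sum of that kind gave every listed Rere circle's count with a largest residual of 0 reads, with 11 free checks over the 4 libraries. Circles that share an end therefore share linear reads and are not separate measurements of them. Non-junction reads can also come from within a larger circle that passes over the end. Replacing the start of exon 2 by that of exon 4 at the same end added 122, 136, 216 and 129 reads in order of stage. The start of exon 2 thus had fewer linear reads than the start of exon 4 in all 4 libraries.

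With the start of exon 2 held fixed, the end of exon 2 had 218, 227, 182 and 146 more linear reads than the end of exon 11 in order of stage. The end of exon 4 had 37 more than the end of exon 11 in the pseudoglandular library, and the differences were -42, -63 and -96 in the canalicular, terminal sac and alveolar libraries. Linear reads at the end of exon 4 were therefore above those at exon 11 in the first library and below them in the other 3. These are counts of 1 library each, not scaled for depth.

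Circles with annotated ends that start at exons 3 to 8 had ratios between 0.010 and 0.070, and circles that start upstream of exon 2 had ratios between 0.012 and 0.046. Of the other 5 circles, chr4:150429409-150439468 had 0.146 with 70 non-junction reads, and chr4:150285592-150292153 had 0.333 with 12 non-junction reads and 3 junction reads in the alveolar library.

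Genes known to act with RERE, in retinoic acid signalling or in the Fat and Yap pathways were followed through their own circles, from a list of 45 genes. Of these, 23 had listed circles and 11 had 20 or more junction reads. Not listed were Atn1, the other vertebrate atrophin, the histone deacetylase Hdac1, the methyltransferase Ehmt2, the retinoic acid synthesising enzymes Aldh1a1, Aldh1a2 and Aldh1a3, and 16 others, which says nothing of their linear transcripts. The methyltransferase Ehmt1, partner of EHMT2, had the most, with 69, 103, 85 and 59 reads in order of stage. The nuclear receptor coactivator Ncoa2 had 47, 41, 76 and 54 reads, the acetyltransferase Crebbp had 16, 42, 48 and 27, and Fat1, an atypical cadherin, had 30, 42, 26 and 20.

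The corepressor Ncor1 had 23, 23, 28 and 9 reads in order of stage, and the histone demethylase Kdm1a had 6, 18, 21 and 27. The orphan receptor Nr2c2 had 16, 3, 22 and 15 reads, and Nr2f2, also called COUP-TFII, an orphan receptor that acts with RERE in mouse embryos, had 8, 3, 7 and 5. The coactivator Ncoa3 had 3, 4, 24 and 12 reads and the acetyltransferase Ep300 had 9, 2, 8 and 14. In the alveolar against the pseudoglandular library, those called included Kdm1a, which was higher, and Ncor1, which was lower, among 11 members measured, beside 12.9% of hosts higher and 16.7% lower, and the members' median log2 ratio was 0.08 beside -0.12 over all hosts. For the terminal sac against canalicular step, Nr2c2 and Ncoa3 were higher and none was lower among 11, beside 12.4% and 12.1%, with a median of 0.68 beside 0.02 over all hosts. For alveolar against canalicular, those called included Nr2c2, Ncoa3 and Ep300, which were higher, and Ncor1, which was lower, among 10, beside 13.1% and 15.1%, with a median of 0.63 beside -0.20. With a minimum of 20 reads in the pair, 2 hosts were called there in place of 5. In the canalicular against the pseudoglandular library, Crebbp was higher and Nr2c2 and Ep300 were lower among 12, beside 8.87% and 11.3%, with a median of -0.36 beside 0.01. Crebbp and Ncoa3 were higher in the terminal sac than in the pseudoglandular library among 11, beside 11.2% of hosts higher and 13.9% lower, with a median of -0.02 beside 0.08. Ncor1 was lower in the alveolar than in the terminal sac library among 11, beside 12.4% of hosts lower, with a median of -0.14 beside -0.23.

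The hosts whose share of junction reads followed that of Rere most closely over the 4 libraries were ranked by the root mean squared difference of centred log2 shares, among 504 hosts with 50 or more reads. They were Ckap5, a microtubule polymerase, with a difference of 0.11, Rbm27, an RNA-binding protein, with 0.12, Zfp532, a zinc finger protein, with 0.12, Pola1, the catalytic subunit of DNA polymerase alpha, with 0.13, and Trim24, a co-regulator of nuclear receptors, with 0.14. Zfp532 had 111, 131, 84 and 73 reads in order of stage, and the other 4 had between 15 and 28 per library. Likeness over 4 libraries is a description, and many hosts with few reads can resemble any profile of this kind.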

How the data were processed

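Total RNA of mouse lung was sequenced at 4 stages, 1 library each. The authors deposited raw counts of junction and of non-junction reads for each circRNA, per the file headers, with the column names of the caller CIRI. Blank non-junction counts were taken as 0. Junction ratios, also deposited, are a fraction, and recomputing them from the counts gave 0 mismatches. Tools given in the submitters' processing notes, without roles, are BWA, HISAT2 2.0.5, StringTie, HTSeq and cutadapt, with the build mm10. No listed circRNA had under 2 junction reads, and other filters are not stated in the labels.

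Depth was 25983 to 36156 listed junction reads per library, which makes circles of a few reads unreliable. Exons and sequences came from GENCODE M21, on the same build. Shares were compared with exact conditional binomial 95% intervals, shares within Rere with Clopper-Pearson intervals and conditional odds ratios, and junction odds with Woolf intervals and 0.5 added. In ratios of shares and in usage odds a circle not listed was set to 3 reads. In sums and in shares it counted as 0. The bound from 3 reads holds only if the library had no more than that. Python 3.11.15, numpy 2.4.6, pandas 2.3.3 and scipy 1.17.1 were used, and the interval code was tested on simulated data. Circles with 10 or more reads, list members with 20 or more, of which 1 is not reported here by name but is in the counts and medians, and the 5 hosts most like Rere were named. The circles, lists and rules were chosen with earlier results of these data known. Alternatives were other scalings, minimum reads, interval levels, merged ends and nearby reads on the flow cell counted once, the last chosen after seeing the data.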

Additional observations from a re-analysis of the deposited data

How the results depend on the processing

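No called circle and no ratio of the Rere share changed direction under the alternatives tried. Of the summary values under alternatives, 123 stayed within the limits set for them and 19 did not. Part of the 123 could not have moved. Merging ends within 5 bases left the 33 Rere circles as 33. The ratio of the Rere share is the same number under any minimum of reads or interval level. For single called circles 63 values under alternatives kept the call and 18 lost it, 11 of them with a 99% interval, 6 with nearby reads counted once, which was chosen after seeing the data, and 1 with scaling by non-junction reads. Of the 63, 13 with a minimum of 5, 6 with a minimum of 20 and 10 with circles listed in both libraries could only keep the call. These filters do not alter a ratio or its interval, and circles that they dropped were not counted as lost. No paired analysis was possible because each stage has 1 library. In the alveolar against the pseudoglandular library, 2 Rere circles were called, 0 with a minimum of 20 reads or a 99% interval, and 1 when only circles listed in both libraries were used. In the canalicular against the pseudoglandular library, 2 became 1 with scaling by non-junction reads and 0 with a 99% interval or nearby reads counted once. In the terminal sac against the canalicular library, 4 became 1 with a 99% interval and 2 with nearby reads counted once. In the terminal sac against the pseudoglandular library, 2 became 1 with a minimum of 20 and 0 with a 99% interval or nearby reads counted once. In the alveolar against the canalicular library, 3 became 0 with a minimum of 20, and 1 with a 99% interval or only circles listed in both. A minimum of 20 tests fewer circles. Without the exon 2 circle, the alveolar to canalicular ratio of the Rere share was 0.592 in place of 0.778, and the junction odds ratio of that pair was 0.762 for all Rere circles summed, against 1.16 for the exon 2 circle. Of the list of RERE partners and retinoic acid genes, 3 hosts called in the canalicular against the pseudoglandular library became 1 with a minimum of 20, 1 in the alveolar against the terminal sac became 2 with scaling by non-junction reads, and 5 in the alveolar against the canalicular became 2 with a minimum of 20.

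Scaling by the median of ratios raised all log2 ratios by 0.20 for the alveolar against the pseudoglandular library, 0.18 against the terminal sac and 0.21 against the canalicular. With that shift the interval of the alveolar to canalicular ratio of the Rere share included 1. Scaling by non-junction reads raised them by 0.17, 0.18 and 0.11 for the alveolar, canalicular and terminal sac against the pseudoglandular library, so that the canalicular to pseudoglandular ratio of the Rere share became 0.9998. Counting nearby reads once removed 10.1%, 6.47%, 5.30% and 7.04% of Rere reads in order of stage, beside 9.09% to 9.34% of all junction reads. Depth limits the 21 circles under 10 reads, since a circle not listed may have had up to 3 reads, which is 1.49% to 2.11% of a library's Rere reads.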
